A study of Mus musculus with 38 samples.

Results

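The 10 genes described here encode the transcription factors of the CREB and ATF family (Creb1, Crem, Atf1, Atf2 and Atf3), the CREB-regulated transcription coactivators (Crtc1, Crtc2 and Crtc3) and the acetyltransferase coactivators CBP (Crebbp) and p300 (Ep300). They were taken by gene symbol, as a set chosen with earlier results of these data known, and are 10 of the 23420 genes counted in every library. Each library held the RNA of 10 granule cells of the dentate gyrus, aspirated through patch pipettes from acute brain slices of male Arc::dVenus mice on a C57BL/6J background that were 8 to 12 weeks old. In these mice the Arc promoter drives a destabilized Venus reporter, so that dVenus+ cells are those in which the promoter had recently been active, and every mouse gave a library of dVenus+ cells and a library of neighbouring dVenus- cells. The 12 fear conditioned (FC) mice received 3 tones that each ended with a foot shock and were sampled 24 h later, the 4 no-shock (NS) mice underwent the same protocol with no shock, and the 3 home cage (HC) mice were never placed in the chamber. The reporter strain and the sampled cell type were common to all groups. The comparison asked of each gene is whether its transcript differed between dVenus+ and dVenus- cells of the same animal, and whether that difference depended on training.

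CREB and its close relatives CREM and ATF1 are bZIP proteins that bind the cAMP response element (CRE) and are switched on mainly by phosphorylation after calcium or cAMP signals, so that their activity can change with no change in their transcript. Phosphorylated CREB recruits CBP or p300, which acetylate histones, while the CRTC proteins move from cytoplasm to nucleus upon dephosphorylation by calcineurin and bind CREB independently of that phosphorylation. ATF2 is a stress kinase target that pairs with JUN proteins, and ATF3 is an inducible, low-basal factor of the same family that responds to stress, injury and strong neuronal activity. In hippocampal neurons these proteins are best known for activity-dependent transcription in long-term plasticity and memory.

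The 38 libraries held between 1352288 and 18394761 counts assigned to genes, with a median of 8013005, and between 7037 and 13286 genes with at least 1 count. All 9 granule cell markers looked for, among them Prox1 and Calb1, were detected in every group of libraries. Their summed level was lower in the dVenus+ than in the dVenus- library of all 19 mice, with FC medians of 501 and 1331 normalized CPM (counts scaled to the effective library size). Arc transcript itself ranged from 477 to 1540 normalized CPM in the FC dVenus+ libraries and from 0 to 172 in the FC dVenus- libraries. The dVenus- libraries of mice 6, 7 and 14 stood apart by holding 108, 48.1 and 172 normalized CPM of Arc, against at most 2.13 in the other FC dVenus- libraries. The FC mice were processed in 3 experiments of 2, 4 and 6 mice, per the study's methods. The NS and HC libraries share a sample ID prefix that no FC library carries. It is read here as another experiment, though no label calls it that. A departure of FC from NS or HC, in levels or in the difference between cell types, thus cannot be told apart from the experiment. No levels were tested between FC and the other mice. For 6 of the 14 NS and HC libraries the description names the other reporter status than the title and cell type labels, and for 10 another sample number, with none such among the 24 FC libraries. Groups and mice follow the titles, under which Arc ran from 147 to 862 normalized CPM in NS and HC dVenus+ libraries and from 0 to 4.96 in dVenus- libraries, but whether the libraries of a mouse are rightly paired was not tested and bears on every NS and HC difference. Since each library is a pool, fewer cells expressing a gene and less RNA per cell cannot be told apart either.

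Per kilobase of exon, Crtc1 had the highest median level over the 38 libraries among the 10 genes, at 12.7 normalized CPM per kb. Atf2 followed at 9.33, Crebbp at 4.95 and Ep300 at 1.99 normalized CPM per kb. Crtc2 (1.45), Creb1 (1.42), Atf1 (1.35) and Crtc3 (1.15) lay close together, and Crem (0.213) and Atf3 (0.0887) were lowest on the same scale. The order pools both cell types, and for Atf3 it depends on that, since its mean over the 38 libraries (20.0) was the highest of the 10 and its median in FC dVenus+ libraries (29.9) stood above that of Crtc1 there (10.9), all in normalized CPM per kb. Of the 9 neighbouring pairs in this order, only Crebbp and Ep300 differed by more than the spread over mice, with a mean log2 difference of 1.30 ± 1.08 (SD, n = 19 mice), and Crebbp was the higher in 30 of 38 libraries. Detection varied widely among the genes. Atf2, Crtc3, Crebbp and Ep300 had at least 1 count in all 38 libraries, whereas Crtc2 was at 0 in 13 libraries, Crem in 11 and Atf3 in 17. The variation between libraries was large for every gene, with a coefficient of variation over the 38 libraries from 64.6% for Crtc1 to 219% for Atf3, and each value rests on only 10 cells.

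**Figure D1:**
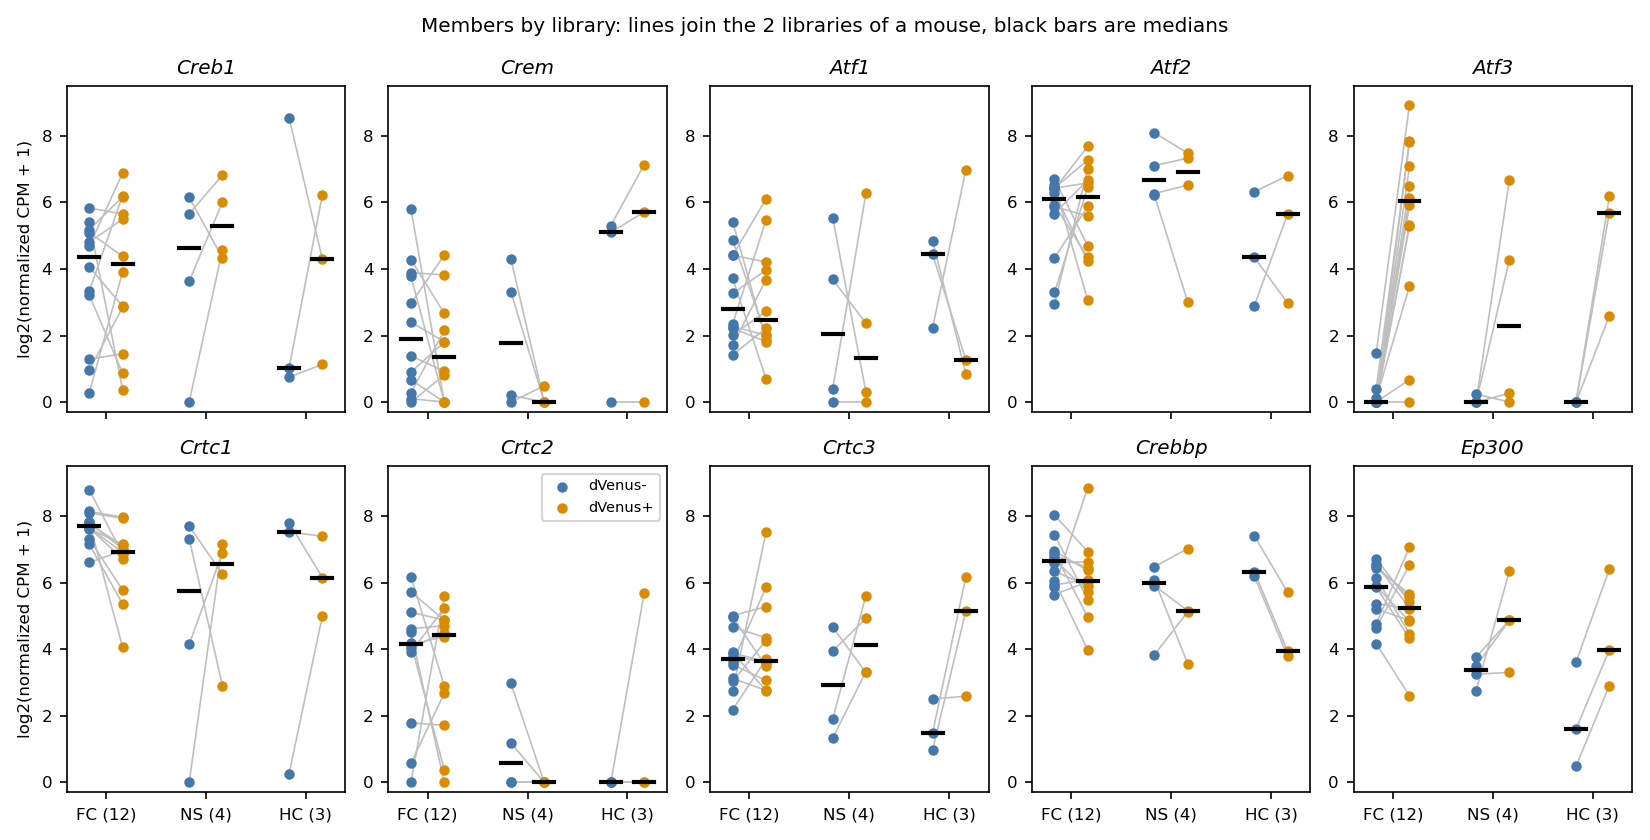
Normalized CPM of the 10 genes in each library, on a log2 scale after adding 1, with dVenus- libraries in blue, dVenus+ libraries in orange, grey lines joining the libraries of a mouse and black bars for medians. Atf3 is at or near 0 in the blue libraries and rises along most lines, whereas the lines of the other genes cross in FC.

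Creb1, the founding cAMP response element binding protein, did not pass the test between the cell types in any group. Its FC dVenus+ libraries ranged from 0.298 to 117 normalized CPM with a median of 16.9, and the dVenus- libraries from 0.210 to 56.1 with a median of 20.2. The ranges overlapped almost fully, and in 7 of 12 mice the dVenus+ library was the higher one. The log2 fold change was 0.51 ± 1.04 (SE, n = 12 mice), with an edgeR adjusted p of 0.914. In NS and HC mice the difference was 1.99 ± 2.43 (n = 4) and 0.66 ± 3.03 (n = 3) on the log2 scale, with edgeR adjusted p values of 1.00 and 0.998. The HC value is unstable, since mouse 16 alone had 372 normalized CPM of Creb1 in its dVenus- library and the other HC dVenus- libraries had 1.04 and 0.681.

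Crem, which encodes both activators and the repressor ICER, was sparse. It was at 0 in 4 of 12 FC dVenus+ and 1 of 12 FC dVenus- libraries, with highest values of 20.3 and 54.8 normalized CPM. Its FC log2 fold change was -0.65 ± 1.38 (SE, n = 12 mice), with an edgeR adjusted p of 0.919. In NS mice the dVenus+ libraries of mice 18, 19, 20 and 21 held 0, 0, 0.403 and 0 normalized CPM, against 0.152, 18.6, 0 and 8.97 in their dVenus- libraries. Crem thus failed the count filter in NS. In HC mice the dVenus+ values of 51.3, 0 and 140 stood against 33.4, 0 and 38.5 normalized CPM in dVenus- cells of mice 15, 16 and 17, with mouse 16 at 0 in both. The counts were not strand-specific as far as the sources used here state, and an exon of Crem overlaps Gm6225 on the opposite strand, so reads of the 2 genes may not be told apart.

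Atf1, the third close relative, was present in all 24 FC libraries, from 0.627 to 67.9 normalized CPM in dVenus+ and from 1.68 to 41.6 in dVenus- cells. The dVenus+ library exceeded its partner in 6 of 12 mice, and the log2 fold change was 0.04 ± 1.00 (SE), with an edgeR adjusted p of 0.994. In NS dVenus+ cells, 1 library (mouse 18, 76.1 normalized CPM) stood far above the others, whose highest was 4.17. Atf2, the JUN partner, was the most evenly detected factor. Its FC medians were 72.5 (dVenus+) and 68.3 (dVenus-) normalized CPM, and its log2 fold change was 0.24 ± 0.72 (SE, n = 12 mice), with an edgeR adjusted p of 0.948. Neither gene passed the test in NS or HC mice, where the log2 fold changes were -1.17 and -2.95 for Atf1 and -0.77 and 0.47 for Atf2. The mean levels of Atf1 ran the other way than these fitted values, at 20.1 (dVenus+) and 14.5 (dVenus-) normalized CPM in NS and 42.5 and 17.5 in HC, where mouse 15 alone held 125 in dVenus+ cells. With 1 HC mouse left out the value ran from -4.72 to 0.58, so no direction can be read for Atf1 there.

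Atf3 was the member with the largest difference between the cell types. In FC dVenus+ libraries it ranged from 0 to 488 normalized CPM with a median of 64.5, and in FC dVenus- libraries from 0 to 1.76 with a median of 0. It was at 0 in 9 of the 12 dVenus- libraries, and the highest dVenus- value came from mouse 7, 1 of the 3 mice with the highest Arc in dVenus- cells, while those of mice 6 and 14 had no Atf3 count. Of the 12 dVenus+ libraries 10 held between 10.2 and 488 normalized CPM, above every dVenus- library. The exceptions were mouse 5, with 0 counts in both libraries, and mouse 14, with 2 counts (0.597 normalized CPM), so the groups overlapped. Summed over the mice there were 10619 Atf3 counts in dVenus+ and 42 in dVenus- cells, a ratio of 424 after normalization (95% exact binomial interval 313 to 588, which covers counting error only). Mouse 7 contributed 26.2% of the dVenus+ counts and 40 of the 42 dVenus- counts. Without it 7841 counts stood against 2, and the ratio was 5958 with a counting interval from 1649 to 49208, so the size of the ratio rests on that mouse.

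Since Atf3 was at or near 0 in dVenus- cells, it reached 10 counts in only 11 of the 24 FC libraries and missed the filter of 12, so it was tested in a fit over all 18089 genes with any count. There its log2 fold change was 10.38 ± 1.05 (SE, n = 12 mice), higher in dVenus+ cells in 11 of 12 mice, with an edgeR adjusted p of 1.42e-05. In that fit 0.735% of all genes were called, a call being an adjusted p under 0.05 and a log2 fold change over 1 in either direction. Without mice 6, 7 and 14 the value was 11.00 ± 1.30 (edgeR adjusted p = 0.000728). Among the 3 experiments, it passed the test within the experiment of 6 mice (11.86 ± 1.25, edgeR adjusted p = 0.00532) and did not within those of 4 mice (7.97 ± 2.12, adjusted p = 0.625) and 2 mice (11.47 ± 3.44, adjusted p = 0.324).

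Outside of fear conditioning Atf3 also appeared in dVenus+ cells. In HC mice 15, 16 and 17 the dVenus+ libraries held 71.6, 50.7 and 5.04 normalized CPM and all 3 dVenus- libraries held 0 counts, so the groups did not overlap; the gene passed the HC filter only through these dVenus+ libraries and therefore had to differ. Against a floor of 3 counts summed over the dVenus- group, Atf3 was at least 293-fold higher in HC dVenus+ cells. The fitted log2 fold change of 10.69 ± 4.21 depends on the prior count, and its edgeR adjusted p was 0.984 at an unadjusted p of 0.0187, while the DESeq2 Wald test gave an adjusted p of 0.000923, the lowest of 16 alternatives, which reached up to 1.00. In NS mice 18, 19, 20 and 21 the dVenus+ values were 102, 0, 0.202 and 18.5 normalized CPM, and the dVenus- values were 0 apart from 0.181 in mouse 19. NS Atf3 therefore rested on mice 18 and 21, with 90.5% of the dVenus+ counts in mouse 18, and the ratio of 838 to 1 counts was 1558 with a counting interval from 279 to 61592. Its log2 fold change of 7.02 ± 4.54 had an edgeR adjusted p of 0.964.

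The difference of Atf3 between the cell types was not shown to depend on training, which in FC against NS or HC goes together with the experiment. In a joint fit of all 38 libraries the FC difference exceeded the NS difference by 2.88 ± 3.84 on the log2 scale (SE; edgeR adjusted p = 0.949). The FC difference fell short of the HC difference by 0.96 ± 1.34 (edgeR adjusted p = 0.928). These SEs are derived from the test statistic and can be too small where a value is near 0. Without NS mouse 19 the FC minus NS value was -0.12 ± 0.17, and without HC mouse 15 the FC minus HC value was 0.10 ± 0.26. The dVenus+ libraries of NS and HC mice, which share a sample ID prefix, differed by -0.45 ± 2.02 (NS minus HC, log2), with an edgeR adjusted p of 1.00.

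**Figure D2:**
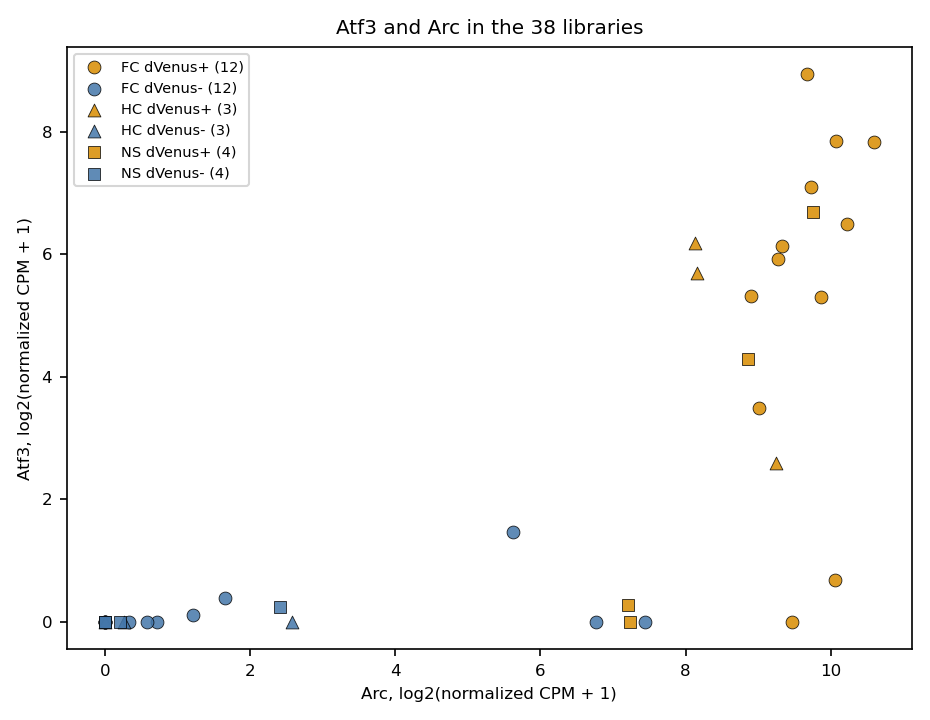
Atf3 against Arc in the 38 libraries, both as log2 of normalized CPM after adding 1, with orange for dVenus+ and blue for dVenus- libraries and circles, squares and triangles for FC, NS and HC mice. High Atf3 is seen only where Arc is high, but 4 orange libraries with high Arc (FC mice 5 and 14, NS mice 19 and 20) lie at or near 0 for Atf3.

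By rank correlation over the 38 libraries, Arc was the gene most like Atf3 of 11263 genes compared, with a Spearman rho of 0.815. Also among the 5 genes most like it were Blnk (0.791), an adaptor of B cell and myeloid signalling, Inhba (0.745), the activin A subunit, and Pappa (0.705), a metalloproteinase. These values describe points that share mice, reporter status and depth, with Atf3 at 0 in 17 of them. Creb1 had no such partner, its highest rho being 0.649 with the unannotated 4933426M11Rik and 0.618 with Ythdc1, an RNA methylation reader, and its rho with Arc was 0.0708. Among the 10 genes themselves the 45 pairwise values ran from -0.407 to 0.451 with a median of 0.107.

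Markers of other cell types were read in the same libraries. The summed level of 10 microglial markers was higher in dVenus+ than dVenus- cells in 9 of 12 FC, 4 of 4 NS and 3 of 3 HC mice, with FC medians of 288 (range 30.2 to 2163) and 59.6 (1.38 to 1061) normalized CPM. Of these markers 8 passed the count filter in FC, all 8 with a positive log2 fold change (median 3.80) and none called, and Aif1 alone was at 0 throughout a group, the HC dVenus- libraries. The summed markers of oligodendrocytes, astrocytes and interneurons were higher in dVenus+ cells of only 4, 3 and 3 of 12 FC mice, and those of astrocytes in 3 of 3 HC mice. The summed level of 6 nuclear-retained RNAs was higher in dVenus+ cells of 12 of 12 FC, 4 of 4 NS and 3 of 3 HC mice. Of the 5 that passed the FC filter, 4 had a positive log2 fold change. Malat1 rose by 1.53 ± 0.31 on the log2 scale in FC dVenus+ cells (SE, edgeR adjusted p = 0.0149, higher in 12 of 12 mice). Miat, at -2.41 ± 0.66, was higher in only 1 of 12 mice (edgeR adjusted p = 0.0792). The part of these differences, and of the lower granule cell markers, in the Atf3 result was not tested.

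The Atf3 promoter is shown with that of Atf1 because these were the members whose promoters held the CRE core TGACG or its reverse complement CGTCA, in capitals below. The windows run from 120 bases before to 20 bases after the RefSeq transcript start (build GRCm38.p6), 5′ to 3′ on the strand of the gene. That of Atf3 lies at chr1:191183314-191183453 on the minus strand, inside the span of its gene model (chr1:191170296-191218039), and that of Atf1 at chr15:100227739-100227878 on the plus strand, across the start of its gene model (chr15:100227819-100261244).
Atf3: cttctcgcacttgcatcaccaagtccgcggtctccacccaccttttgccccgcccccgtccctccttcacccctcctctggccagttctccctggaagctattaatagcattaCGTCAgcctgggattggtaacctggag
Atf1: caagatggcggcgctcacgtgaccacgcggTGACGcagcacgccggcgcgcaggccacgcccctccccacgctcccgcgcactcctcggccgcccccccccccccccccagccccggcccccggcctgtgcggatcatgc
The core began 7 bases before the start of Atf3 and 90 bases before that of Atf1. In 300-base windows, 250 bases before to 50 after the start, 2 of the 8 members with a RefSeq promoter held the core on either strand and none held the full palindrome TGACGTCA, which contains the core on both strands. Over all 32851 promoters 20.8% held the core and 1.79% the full element. Of the promoters of genes tested in FC 37.7% held the core, against 41.5% (17 of 41) of those called higher and 28.8% (17 of 59) of those called lower in dVenus+ cells.

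The CRTC coactivators are the calcineurin-gated partners of CREB. Crtc1, the abundant neuronal form, showed the smallest p of the 9 members that passed the FC filter. Its FC dVenus+ libraries ranged from 15.8 to 250 normalized CPM with a median of 122, and its dVenus- libraries from 96.8 to 443 with a median of 208. The ranges overlapped, but in 11 of 12 mice, all but mouse 3, the dVenus+ library held less Crtc1 than its partner. The log2 fold change was -0.99 ± 0.36 (SE, n = 12 mice), with an unadjusted p of 0.0132 and an edgeR adjusted p of 0.206, and it was not called. The DESeq2 Wald test gave an adjusted p of 0.0390 at -0.94, short of the fold that a call needs, and over 45 alternatives the adjusted p ran from 0.0364 to 1.00. In NS and HC mice its log2 fold changes were 0.78 ± 2.60 and 0.57 ± 2.16, with 1 dVenus- library near 0 in each group (0 normalized CPM in NS mouse 18 and 0.202 in HC mouse 16) and the edgeR adjusted p at 1.00 and 0.998. The mean levels ran the other way, at 86.0 (dVenus+) and 96.4 (dVenus-) normalized CPM in NS and 89.8 and 136 in HC. With 1 mouse left out the values ran from -1.31 to 2.95 in NS and from -1.12 to 3.16 in HC, so no direction can be read for Crtc1 there.

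Crtc2 was detected in 11 of 12 libraries of either cell type in FC mice, with medians of 20.8 and 16.9 normalized CPM in dVenus+ and dVenus- cells and a log2 fold change of -0.23 ± 1.25 (SE; edgeR adjusted p = 0.972). It was nearly missing from the NS and HC libraries. All 4 NS dVenus+ and all 3 HC dVenus- libraries held 0 counts, and counts were found only in HC mouse 17 (381 counts in dVenus+ cells) and in NS mice 18 and 21 (45 and 16 counts in dVenus- cells). Since FC and the other mice differ in sample ID prefix, read as separate experiments, training and experiment cannot be told apart here. Crtc3 had at least 10 counts in all 24 FC libraries, with medians of 11.7 and 12.2 normalized CPM and a log2 fold change of 0.36 ± 0.80 (SE; edgeR adjusted p = 0.922). It was higher in dVenus+ cells of only 5 of 12 FC mice, and mouse 5 held 182 normalized CPM in dVenus+ against 5.76 in dVenus- cells. In HC mice 15, 16 and 17 Crtc3 was at 34.8, 71.6 and 5.04 normalized CPM in dVenus+ cells and at 0.964, 1.81 and 4.67 in dVenus- cells. These groups did not overlap, with mouse 17 holding the closest values, yet the log2 fold change of 3.72 ± 3.75 had an edgeR adjusted p of 0.984.

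Crebbp and Ep300 encode the acetyltransferases that bind phosphorylated CREB and many other factors. Crebbp ranged from 14.8 to 463 normalized CPM (median 65.8) in FC dVenus+ and from 49.1 to 262 (median 99.7) in FC dVenus- libraries, and was lower in dVenus+ cells of 8 of 12 mice. Ep300 ranged from 5.07 to 133 (median 36.7) and from 17.1 to 105 (median 58.2) and was lower in dVenus+ cells of 10 of 12 mice. The groups of both genes overlapped, and their log2 fold changes of -0.55 ± 0.46 and -0.62 ± 0.56 (SE, n = 12 mice) had edgeR adjusted p values of 0.692 and 0.723.

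In HC mice 15, 16 and 17 Crebbp was at 51.6, 14.4 and 12.9 normalized CPM in dVenus+ cells and at 169, 79.6 and 72.3 in dVenus- cells, with no overlap. The log2 fold change was -2.37 ± 1.99 (edgeR adjusted p = 0.984). Beside Atf3, whose lack of overlap its filter fixed, Crtc3 and Crebbp were the members whose cell types did not overlap in HC, as was the case for 15.1% of all genes tested there. Ep300 went the other way in HC mice, from 11.3, 0.403 and 2.04 in dVenus- to 83.9, 6.51 and 14.8 normalized CPM in dVenus+ cells, higher in 3 of 3 mice. It was also higher in dVenus+ cells of 4 of 4 NS mice, where the dVenus+ values were 8.89, 80.7, 28.4 and 28.3 and the dVenus- values 8.54, 5.78, 12.6 and 10.3 normalized CPM in mice 18, 19, 20 and 21. The Ep300 difference was smaller in FC than in HC mice by 3.86 ± 1.46 on the log2 scale (SE), beside a median interaction of -0.87 over all genes, with an unadjusted p of 0.0138, an edgeR adjusted p of 0.770 and a DESeq2 adjusted p of 0.00757, the lowest of 24 alternatives, which reached up to 0.993. Against NS mice it was smaller by 2.22 ± 1.31 (edgeR adjusted p = 0.876). In both contrasts training and experiment cannot be told apart.

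**Figure D3:**
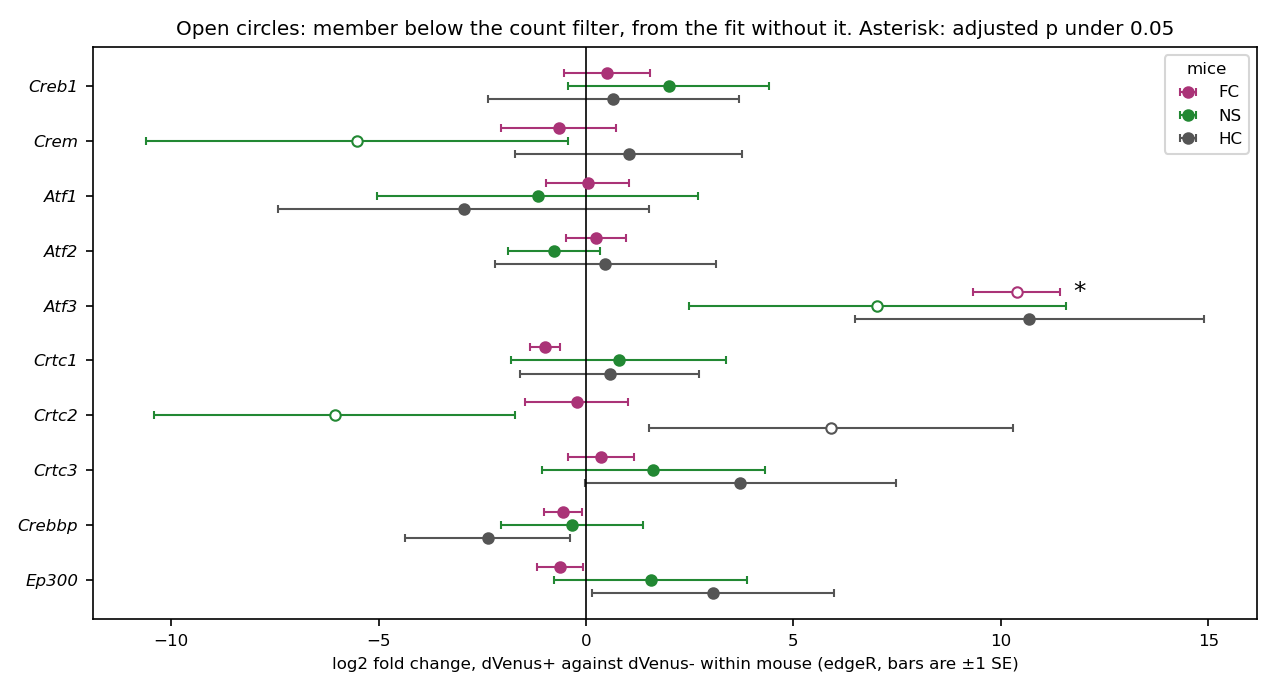
Log2 fold changes of the 10 genes between dVenus+ and dVenus- cells within mouse, in FC (purple), NS (green) and HC (grey) mice. Bars are ±1 SE, derived from the test statistic, and open circles are genes below the count filter. Only Atf3 in FC (10.38 ± 1.05) carries the asterisk of an adjusted p under 0.05, and the NS and HC bars are wider than those of FC for every gene.

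In count, none of the 9 members that passed the FC filter was called by edgeR, where 1.41% of the 9709 genes tested were called. Of these members 1 (Crtc1) had an unadjusted p under 0.05, where 12.8% of all genes did, and none had cell types that did not overlap, where 0.124% of all genes did. The DESeq2 Wald test called none of the 9 either, where it called 16.8% of all genes. In NS mice none of 7 members was called (0% of 8187 genes were), none had an unadjusted p under 0.05 (4.69% of genes), none was free of overlap (5.96% of genes) and none was called by DESeq2 (8% of genes). In HC mice none of 9 was called (0.0264% of 7588 genes were), and 1 (Atf3) had an unadjusted p under 0.05 (3.91% of genes) and was called by DESeq2, which called 8.17% of genes. Atf3 passed the HC filter only through its dVenus+ libraries and had to differ, so these counts are no result about the members. The members below the filter, Crem, Atf3 and Crtc2 in NS and Crtc2 in HC, were not called in the fits without it, where 0.0896% and 0.0359% of genes were. No member was called by edgeR in either interaction with training (0% of 14075 genes). An unadjusted p under 0.05 was held by 5.42% of genes in the interaction of FC with NS, none of them a member, and by 6.34% in that of FC with HC, with Ep300 as the single member. DESeq2 called no member of the former (7.73% of genes) and Ep300 alone of 10 in the latter, a share near the 10.5% of all genes. Between NS and HC mice none of the 8 members that passed each filter was called by edgeR in dVenus+ cells (0% of 8706 genes) or dVenus- cells (0% of 8547 genes) or by DESeq2 (1.26% and 1.66% of genes), and none had an unadjusted p under 0.05 (3.45% and 3.28% of genes). Below the dVenus+ filter, Crem and Crtc2 had unadjusted p values of 0.00332 and 0.0151 in the fit without it, where 8.97% of genes were under 0.05, with fitted NS minus HC differences of -8.97 and -9.40 and an edgeR adjusted p of 0.529 for both; DESeq2 was not run on them.

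Other genes of the pathway were read from lists that were chosen with earlier results of these data known. Of 16 further CREB and ATF factors 7 passed the FC filter and none was called. The smallest p was that of Atf4, the effector of the integrated stress response, which stood at 215 ± 137 (dVenus+) and 43.1 ± 43.0 (dVenus-) normalized CPM (SD, n = 12), was higher in dVenus+ cells of 12 of 12 mice and had a log2 fold change of 2.70 ± 0.73 (SE; edgeR adjusted p = 0.0722). A list of 26 genes held kinases and phosphatases of the CREB and CRTC pathway, some of them upstream kinases or subunits. Of these genes 23 passed the filter, 1 was called lower and none higher, and 19 had a negative log2 fold change. Their median was -0.73, beside -0.21 over all genes tested. Positive values were held by 4 of the 23, beside 4188 of the 9709 genes tested. The called gene was Camk2b, a subunit of the calcium/calmodulin-dependent kinase II, at 382 ± 198 (dVenus+) and 1118 ± 322 (dVenus-) normalized CPM with a log2 fold change of -1.73 ± 0.37 (lower in 12 of 12 mice; edgeR adjusted p = 0.0218). Without mouse 3 or mouse 12 no gene of this list was called lower, and DESeq2 called 5 lower and 2 higher of the 23, where it called 11.1% of all genes lower and 5.71% higher. The next was its partner subunit Camk2a, at -1.16 ± 0.29 (edgeR adjusted p = 0.0527).

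Among textbook CREB target genes, those with a CRE in their promoter or an established response to CREB, several were called. Of 35 listed genes 23 passed the FC filter, 10 rose in dVenus+ cells and none fell, where 0.577% of all genes tested rose and 0.834% fell, and the median log2 fold change was 2.50. The count was 6 without mouse 1 and 5 without mouse 3 or mouse 12, and 2, 0 and 0 within the experiments of 2, 4 and 6 mice. The list was chosen with earlier results of these data known, so its count beside that share is no independent support. It holds Arc, whose promoter drives the reporter by which the cells were picked, and Atf3. Arc rose by 9.98 ± 1.41 on the log2 scale (SE; edgeR adjusted p = 0.000991), Inhba by 8.84 ± 1.27 (0.00111), the synaptic pentraxin Nptx2 by 7.62 ± 1.61 (0.0209) and the neuropeptide gene Npy by 7.48 ± 1.68 (0.0326), each with n = 12 mice. These fitted changes exceed those of the mean levels in dVenus+ and dVenus- cells. The means were 868 and 27.7 normalized CPM for Arc, 199 and 8.25 for Inhba, 72.3 and 6.04 for Nptx2, and 78.1 and 30.9 for Npy. Npas4, an activity-dependent transcription factor of neurons, was below the filter, and in the fit without it rose by 7.67 ± 1.60 (edgeR adjusted p = 0.0230). Vgf, a neuropeptide precursor, had the smallest p of those not called, at 3.15 ± 1.10 (edgeR adjusted p = 0.187). In the promoters, 22 of the 27 target genes with a RefSeq promoter held the CRE core and 5 the full element, where 37.7% of the promoters of all genes tested held the core. These genes were listed in part for that element, so the count is no result. None of the 20 target genes that passed the NS filter and none of 21 in HC were called by edgeR, with 6 and 3 at an unadjusted p under 0.05 and medians of 1.94 and 1.49.

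Genes of axon injury and regeneration, a response in which ATF3 is well known, were looked at as a list of 11. Of these 6 passed the FC filter and none was called, with a median log2 fold change of 1.53. Cdkn1a, a cell cycle inhibitor, was below the filter and rose by 9.40 ± 1.71 in the fit without it (SE; edgeR adjusted p = 0.00701). Ddit3, the stress factor CHOP, had the smallest p of those not called, at 3.05 ± 0.96 (edgeR adjusted p = 0.132). Jun, the usual dimer partner of ATF3, was at 180 ± 116 (dVenus+) and 216 ± 142 (dVenus-) normalized CPM (SD, n = 12) with a log2 fold change of -0.29 ± 0.45 and an edgeR adjusted p of 0.869; it was named after its values were seen.

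**Figure D4:**
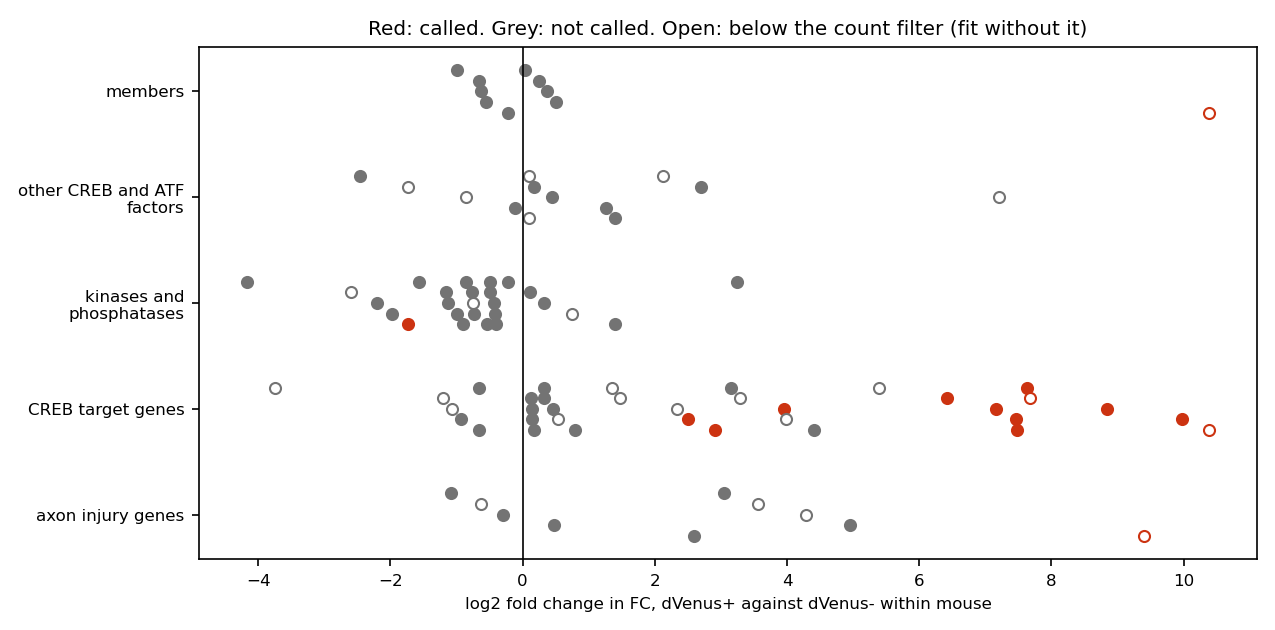
Log2 fold changes between dVenus+ and dVenus- cells of FC mice for the 10 members and the 4 lists of related genes, in red where called and open where a gene fell below the count filter. The members lie between -0.99 and 0.51 apart from Atf3 at 10.38. Of the target genes 10 filled red points lie to the right of 0. Members and lists were chosen with earlier results of these data known.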

How the data were processed

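Per the labels and the study's methods, lysates of 10 aspirated cells were converted to full-length cDNA (SmartSeq2), sequenced as single reads of 50 bp, mapped to mm10 (TopHat2 2.0.13) and counted per gene (HTSeq 0.6.0), so that the values the authors deposited are raw counts per gene. Reads carried no molecular identifiers, so counting intervals cover counting error only. The 5 entries naming no gene were left out. Among them, reads on no counted feature made up 16.4% to 59.7% of all reads on a gene, on no feature or ambiguous. Groups follow the titles and treatment labels, with which the descriptions of some NS and HC libraries conflict.

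Counts were tested with edgeR 4.0.16 (R 4.3.3; TMM normalization, glmQLFit at its default, glmQLFTest) with mouse as a blocking factor. Genes entered a fit when they reached 10 counts in 12 (FC), 4 (NS) or 3 (HC and fits across training) libraries. Members below this filter come from a fit without it. The SE given with an edgeR value is its absolute log2 fold change over the square root of the F of its test. It is not a standard error of the model and can be too small where the value is near 0. The mouse number pairs the 2 libraries of an animal; their deviations from the group means correlated by medians of 0.0401 (FC), -0.0217 (NS) and 0.0177 (HC). Calls needed a Benjamini-Hochberg adjusted p under 0.05 over all genes tested and an absolute log2 fold change over 1. Levels are TMM-normalized CPM, computed from the deposited counts, per kb of the exon union of GENCODE (release of GRCm38) where genes are compared. DESeq2 1.42.0, the tool of the study, was an alternative, as were other filters, scalings and left-out mice. The fits were checked on simulated counts. The members and lists were chosen with earlier results of these data known. Named from each further list were up to 6 called genes by size of change and the gene of smallest p not called, and the 5 genes most like Atf3 and Creb1; exceptions are marked, and 1 gene under this rule is not reported here.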

Additional observations from a re-analysis of the deposited data

Results flagged for a closer look

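Among the 19 sets of 4 NS libraries of a gene and cell type with any count, 3 held a library far from the other 3. A chance rate of about 1 in 20 presumes normally distributed values, which was not tested for these uneven levels. That rate does not apply at all to 2 of the 3, which are a lone value beside libraries at 0 and are marked by construction. In NS dVenus+ cells the Crem value of mouse 20 (0.403 normalized CPM, 2 counts) stood alone against 0 in the others, and the Atf1 value of mouse 18 (76.1 normalized CPM) lay far above the rest. In NS dVenus- cells the Atf3 value of mouse 19 (0.181 normalized CPM) was a lone count beside libraries at 0.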

How the results depend on the processing

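Of the members, Atf3 in FC alone passed the edgeR test, and its call rested on the count filter: 0 members were called under the filter of the report, which Atf3 missed, and 1 without a filter, with 10 counts in 10 of all 38 or of the 24 FC libraries, and without mice 3 and 5. Leaving out 1 mouse gave 0 to 1 under the filter (1 without mouse 5 or 14) and 1 each time without it. Where Atf3 passed a count filter, it did so mainly through dVenus+ libraries. It reached 10 counts in 10 of 12 FC dVenus+ and 1 of 12 FC dVenus- libraries. The calls of Atf3 under those filters were thus favoured in advance and are no further support. Without a filter the count was also 1 with DESeq2 size factors, the DESeq2 Wald test, the newer quasi-likelihood method of edgeR, the experiment of 6 mice alone, without mice 6, 7 and 14, and with no mouse block, where Atf3 stood at 9.11 (edgeR adjusted p = 0.000385). The DESeq2 Wald test called 1 member in HC (Atf3, whose difference there its filter fixed) and 1 in the FC and HC interaction (Ep300). Crtc1 in FC was negative in all 45 alternatives and called in none. No direction of a called value turned, and pairing the libraries by mouse changed no other member call. Over all genes FC calls were 137 (126 without the block, 1635 with DESeq2, 422 with the newer method, 56 to 118 with 1 mouse left out, 56 without mouse 3, 66 without mouse 1, 79 without mouse 12, 90 without mouse 6, and 10, 3 and 0 within experiments); NS calls were 0 (655 with DESeq2, 13 without a filter, and 5, 12, 0 and 10 without mouse 18, 19, 20 or 21) and HC calls 2 (620 with DESeq2, 5 without a filter, 0 without the block, 2 to 3 with 1 mouse left out). Size factors shifted the median of all genes by 0.14 and 0.26 in the interactions with NS and HC and by -0.14 between the NS and HC dVenus- libraries. The depth of 10 cells and 3 or 4 mice limits NS and HC, where the SEs exceed most of the values. The pairs and trio of mice left out, the newer method, the filter on 10 of 24 libraries and the unfiltered fits with a second choice changed were chosen after seeing the data.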
